A study of Mus musculus with 23 samples.

Results

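RNA crosslinked to a CTCF protein with a deletion in zinc finger 1 (ΔZF1) was compared between neural progenitor cells (NPCs) and the mouse embryonic stem cells (ESCs) they were made from. The comparison rests on 2 pooled lists of crosslink sites, ESC-ΔZF1 and NPC-ΔZF1, each called on 4 merged libraries, so 8 of the 23 libraries of the study enter it. All cells were E14 (ES-E14TG2a) cells, a mouse ESC line, in which endogenous CTCF carries an AID2 degron and the OsTIR1(F74G) ligase subunit that recognises it is expressed from Rosa26. They were treated with 1 µM 5-Ph-IAA, which starts degradation of endogenous CTCF, and with 1 µg/mL doxycycline for 24 hours, which switches on a Flag- and Halo-tagged CTCF rescue transgene at the Tigre locus. Degradation and rescue were therefore shared by every group, the comparison groups included. ESCs were kept with leukemia inhibitory factor, CHIR99021 and PD0325901, and NPCs were differentiated for 2 days in N2B27 medium on laminin. Both ΔZF1 groups received 400 mJ/cm2 of UV light at 254 nm. Each rescue line was 1 clone. ESCs and NPCs of the ΔZF1 line therefore share a clone, whereas between the ΔZF1 and the WT line genotype and clone cannot be told apart.

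For each gene with at least 20 sites in the ΔZF1 lists together, on its own strand and within its annotated body, the number of NPC sites was set against the number of ESC sites after both were scaled to all genic sites of their list. A total of 5113 of 55413 annotated genes met this minimum. The same ratio in the wild-type rescue line (ESC-WT, 4 libraries, and NPC-WT, 3 libraries) and in the wild-type line without UV (ESC-noXL and NPC-noXL, 4 libraries each) stands beside it. None of the 3 pairs shares a library with another, and the ΔZF1 line has no control without UV among the samples used here. Since sites were called on merged libraries, there is 1 value per group, no replicate error and no test. Ranges after a value are 95% intervals that cover counting error only.

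CTCF is a DNA-binding protein with a row of zinc fingers that stops cohesin on chromatin and so anchors chromatin loops. It also binds RNA, and zinc finger 1 is among the parts of the protein that have been assigned to RNA binding. In CLIP, UV light joins protein to the RNA it touches, most readily at uridine, and reverse transcription of the purified RNA ends next to the joined nucleotide, which marks a site. ESCs held with inhibitors of GSK3 and MEK run a naive pluripotency programme led by factors such as Esrrb, Tfcp2l1, Nanog and Zfp42, and they shut this programme down within days of leaving those conditions, while neural genes such as Nes and Pax6 come on. The RNA available to CTCF therefore differs between these cells, and in bulk libraries more binding, more RNA per cell and more cells of a type cannot be told apart.

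The sites below show examples from the genes at both ends of the comparison. They are the highest-scoring ΔZF1 sites of 4 genes from the NPC-high end of the ratio and 5 from the other end, and of Podxl and Grb10, whose RNAs the study followed. Each is given as 25 nt of the RefSeq GRCm38.p6 sequence (mm10) in RNA letters, 5′ to 3′ on the gene's strand, with the base called as the site in capitals. The first 6 are sites of the NPC-ΔZF1 list and the last 5 of the ESC-ΔZF1 list.
Adgrl2, intron, chr3:148857156-148857180, minus strand: uuuccccuguguUggggaggacagg
Airn, intron, chr17:12799620-12799644, plus strand: agccccccucccUggagcagcuggc
Grip1, intron, chr10:119529625-119529649, plus strand: uaauagcuuauuUggauguauucau
Ptpn14, intron, chr1:189732752-189732776, plus strand: ggggagagggggGgaaguacaggcu
Podxl, coding exon, chr6:31524995-31525019, minus strand: cagcugaggauuUgugcacucuaca
Grb10, 5′ UTR, chr11:12037389-12037413, minus strand: ggguggggugcgGggaggcggcagg
Cobl, intron, chr11:12339163-12339187, minus strand: agaacucagaaaAgugggcagaguu
Esrrb, intron, chr12:86470102-86470126, plus strand: cucucaccucacUuagaacugacuc
Tfcp2l1, exon outside the basic set, chr1:118627933-118627957, plus strand: cgcagcccacucAgguucgaguggg
Tet2, 5′ UTR, chr3:133544292-133544316, minus strand: gcgaggcugcuuUcguagaggagca
Tdh, 5′ UTR, chr14:63508758-63508782, minus strand: aaacucuugacuCcgcacgugcugc
Among the 6 NPC sites the called base was U at 4 and G at 2, and 3 of the U sites (Adgrl2, Grip1 and Podxl) lay in the triplet UUG. Among the 5 ESC sites it was U at 2, A at 2 and C at 1. Of all 11 sites, 6 lay in introns. The Tfcp2l1 site is the first base of the annotated gene, in an exon of a transcript that the basic set of GENCODE leaves out. Within 5 nt, the Podxl and Grb10 sites were also called in NPC-WT, that of Grb10 also in NPC-noXL, whereas those of Adgrl2, Airn, Grip1, Ptpn14 and Cobl were called in no other list. The Esrrb, Tet2, Tdh and Tfcp2l1 sites were called in ESC-WT and also in ESC-noXL, that is, without UV, and that of Tfcp2l1 was called in NPC-WT as well.

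The ESC-ΔZF1 list held 231636 sites on chromosomes 1 to 19, X and Y, of which 217770 were genic, and the NPC-ΔZF1 list held 158490, of which 153211 were genic. The NPC list was 0.684 times as long as the ESC list (0.680 to 0.689), against 0.530 in WT and 0.675 in noXL. The read depth behind the lists is unknown, and both deeper sequencing and more crosslinking lengthen a list. Scaling to genic sites removes this difference, and without it every log2 ratio would move by -0.51, so that values between 0 and 0.51 would change sign. Scaling to exonic sites alone moved the median ratio from -0.08 to 0.10 instead. No direction is therefore given for a gene or a list whose scaled log2 ratio lies between about -0.18 and 0.51.

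Of the 5113 genes, 556 had a scaled log2 ratio of at least 1 (10.9%) and are called NPC-high here, and 720 had one of at most -1 (14.1%) and are called ESC-high. The counting interval excluded 0 in 529 and 671 of them. No ESC-ΔZF1 site was called in 66 of the NPC-high genes and no NPC-ΔZF1 site in 73 of the ESC-high genes. Quartiles of the ratio were -0.59 and 0.40. The split between NPC-high and ESC-high genes depended on the scaling, with 686 against 577 genes after scaling to exonic sites and 331 against 1535 with no scaling. Within 0.25 of the upper limit, 149 genes lay just inside and 202 just outside, and at the lower limit the numbers were 189 and 293. The limits thus divide a continuous distribution, and while the genes named for the highest or lowest ratio lie far from them, some members of the gene lists, Ctcf and Dst among them, lie close. In each gene 1 site was added to both counts before the ratio. Where 1 list held no site, a bound is given in place of the ratio, set by a floor of 3 sites in that list.

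**Figure D1:**
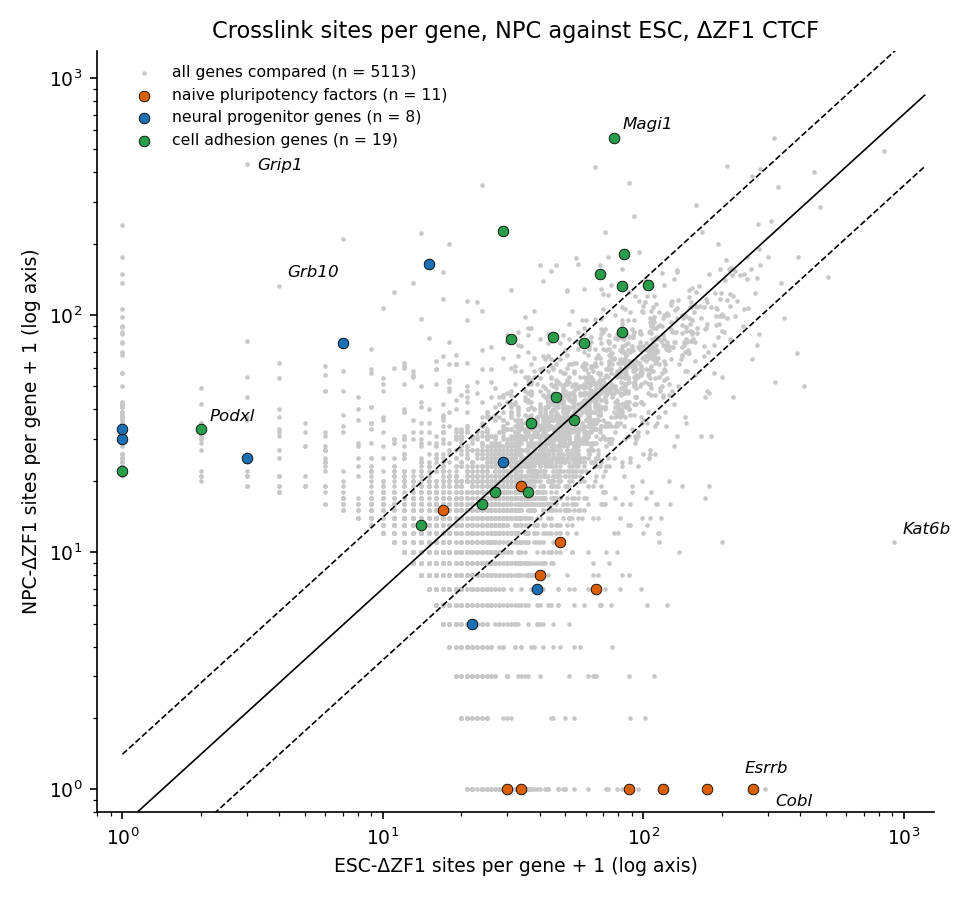
Crosslink sites per gene in the ESC-ΔZF1 list (x axis) and the NPC-ΔZF1 list (y axis), 1 site added to each count, both axes logarithmic, 1 point per gene for the 5113 genes compared. The solid line is equality after scaling and the dashed lines are the limits of 1 and -1 on the log2 scale. Of the naive pluripotency factors (orange), 6 lie on the bottom edge with no NPC site, and of the neural progenitor genes (blue), 5 lie above the upper dashed line.

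Of the 12 genes named by rank at the ESC-high end, 4 belong to the naive pluripotency programme, while the first in rank was Cobl. Esrrb, an orphan nuclear receptor (ENSMUSG00000021255, chr12:86361117-86521628, plus strand), held 263 sites in ESC-ΔZF1 and 0 in NPC-ΔZF1, which makes it at least 61.7-fold lower in NPCs. It held 460 and 0 sites in the WT pair and 158 and 0 in the noXL pair. Tfcp2l1, a transcription factor of the same circuit, held 175 and 0 ΔZF1 sites, at least 41.0-fold lower, with 343 and 5 in WT. Tet2, an enzyme that oxidises 5-methylcytosine, held 118 and 0, and Tdh, the threonine dehydrogenase on which mouse ESCs depend, held 87 and 0. All 4 genes were at or close to 0 in NPCs in each of the 3 pairs.

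The other genes at this end were not a single family. Kat6b, which encodes a histone acetyltransferase (ENSMUSG00000021767, chr14:21481434-21672478, plus strand), held 918 ESC-ΔZF1 sites and 10 NPC-ΔZF1 sites, a log2 ratio of -5.88 (-6.90 to -5.13). The WT pair held 1817 and 9 sites and the noXL pair 552 and 15. Cobl, an actin nucleator encoded next to Grb10 (ENSMUSG00000020173, chr11:12236608-12464960, minus strand), held 292 and 0, at least 68.5-fold lower, the lowest ratio of all genes named by rank. The remaining genes named by rank were all at 0 in NPC-ΔZF1. They were Fbxo15 (94 ESC sites), an F-box protein gene active in ESCs, Inpp5d (85), a phosphoinositide phosphatase, Zfhx2 (82), a zinc finger homeobox factor, Jam2 (78), a junctional adhesion molecule, Arid5b (72), a DNA-binding cofactor, and the long noncoding RNA Gm44748 (71). Gm44748 stood apart from the rest, since the WT pair held only 2 and 0 sites in it and the noXL pair 6 and 0.

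At the NPC-high end, sites appeared in genes of receptors, guidance molecules, scaffolds and noncoding RNAs. Grip1, a scaffold of glutamate receptors and of adhesion complexes (ENSMUSG00000034813, chr10:119453830-120087261, plus strand), held 2 ESC-ΔZF1 and 433 NPC-ΔZF1 sites, a log2 ratio of 7.68 (6.40 to 10.14), with 11 and 443 in WT. Adgrl2, the adhesion receptor latrophilin 2, held 0 and 174, at least 82.4-fold higher, with 4 and 241 in WT. Airn, the imprinted noncoding RNA transcribed across Igf2r, held 0 and 148, at least 70.1-fold higher, with 0 and 153 in WT.

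Further genes with no ESC-ΔZF1 site were Ptpn14 (136 NPC-ΔZF1 sites), a tyrosine phosphatase, the long noncoding RNA Platr22 (105), Kcnj3 (97), an inward-rectifier potassium channel subunit, Samd4 (89), an RNA-binding repressor of translation, Efna5 (88), a membrane-bound ephrin, Fndc3c1 (84), Flnc (82), which crosslinks actin, and Slit3 (76), a secreted guidance ligand. Efna5, Samd4 and Slit3 held fewer NPC sites in the longer WT list, 11, 17 and 11, than in the ΔZF1 list. In the noXL pair they held 0 and 15, 0 and 22, and 4 and 25. Samd4 shared part of its sites with another gene, with 87.6% in Samd4 alone.

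Podxl and Grb10 were both NPC-high with ΔZF1 CTCF. Podxl encodes podocalyxin, a sialomucin of the apical cell surface (ENSMUSG00000025608, chr6:31519488-31563981, minus strand), and held 1 ESC-ΔZF1 and 32 NPC-ΔZF1 sites, a log2 ratio of 4.55 (2.97 to 8.04). The WT pair held 8 and 46 sites and the noXL pair 9 and 12. Grb10 encodes an imprinted adaptor that restrains insulin and growth factor receptors (ENSMUSG00000020176, chr11:11930508-12038683, minus strand), and held 3 and 132 sites, a log2 ratio of 5.56 (4.39 to 7.54). The WT pair held 15 and 279 and the noXL pair 9 and 143. Of the NPC-ΔZF1 sites in Podxl 29 lay in exons and 3 in introns, whereas in Grb10 34 lay in exons and 98 in introns. Ctcf itself held 68 and 23 sites, a log2 ratio of -1.02 (-1.73 to -0.38), with 109 and 28 in WT. Its exon sites (10 and 12) do not tell the transgene from the endogenous gene, so the counts are no check of the rescue.

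The cell type labels were set against marker genes. The 11 markers of naive ESCs held 685 ESC-ΔZF1 sites and 55 NPC-ΔZF1 sites, with 0 markers at 0 in ESCs and 6 at 0 in NPCs. The 10 markers of neural progenitors held 35 and 211 sites, with 8 at 0 in ESCs and 5 at 0 in NPCs. The defining progenitor genes Sox1, Pax6, Hes5, Zic1 and Fabp7 had no ΔZF1 site in either list, so the progenitor label rests here on Prtg, which alone held 163 of the 211 NPC sites, Nes (0 and 32) and Cdh2 (0 and 11). Zfp521 held 1 NPC site and Ncam1 went the other way, with 21 and 4. Formative epiblast markers, which mark the step between naive ESCs and germ layers, went from 19 to 71 sites in 6 genes. Most of these were in Dnmt3b (12 and 55), Pou3f1 held 0 and 9, Zic2 held 7 in both lists, and Otx2, Fgf5 and Sox3 had no ΔZF1 site. All 10 mesoderm and endoderm markers were at 0 in both lists. Of 5 trophoblast markers, the keratin genes Krt8 and Krt18 went from 0 to 22 and from 0 to 10 sites (0 to 42 and 0 to 25 in WT), while Cdx2, Elf5 and Gata3 were at 0 in both ΔZF1 lists. The part that other cells or incomplete differentiation play in the gene ratios was not tested.

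By function, the lists whose compared members moved farthest were the naive pluripotency factors and the neural progenitor genes. The counts of members in these and the following lists stand against 10.9% NPC-high and 14.1% ESC-high over all genes. The minimum counts the sites of both ΔZF1 lists together, so a gene can enter through the cell state in which it is high. Of 18 naive factors, 11 were compared, 9 were ESC-high and 0 NPC-high, with a median of -4.40, or -2.77 with genes at 0 set to their bound, against -0.08 over all genes. Their sites summed to 964 in ESC-ΔZF1 and 56 in NPC-ΔZF1. Besides the genes above, Nr5a2 (33 and 0) and Pecam1 (29 and 0) had no NPC site. Some factors kept sites in NPCs. Nanog held 39 and 7, a ratio of -1.81 (-3.10 to -0.84), and Zfp42, known as Rex1, 47 and 10, a ratio of -1.62 (-2.69 to -0.76). Tbx3, a T-box factor, held 65 and 6 with ΔZF1 but 130 and 0 with WT. Klf5 (33 and 18) and Fgf4 (16 and 14) stayed between the limits. Members named beyond the naming rule, here and in the lists that follow, were chosen after their values were seen.

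Of 30 neural progenitor genes, 8 were compared, and 5 were NPC-high and 2 ESC-high, with a median of 3.76 (3.67 with bounds). Nes, the intermediate filament nestin, held 0 and 32 sites, at least 15.2-fold higher, and Meis2, a homeobox factor, 0 and 29. Prtg, the adhesion receptor protogenin of early neural tissue, held 14 and 163, a ratio of 3.96 (3.27 to 4.83). Sox4, a transcription factor of neural precursors, held 2 and 24, a ratio of 3.57 (2.16 to 6.03). Nes, Meis2 and Sox4 met the minimum through their NPC sites, and 11 of the 30 genes had no ΔZF1 site. The median thus describes the compared members and not the whole list. The compared members were not uniform. Gli3 and Gli2, both effectors of Hedgehog signalling, moved to opposite sides, with 6 and 75 sites in Gli3 and 38 and 6 in Gli2. The neural adhesion molecule Ncam1 held 21 and 4, and Vim, the filament protein vimentin, 28 and 23. In WT each of Nes, Meis2, Prtg, Sox4 and Gli3 also had a ratio of at least 1, and Gli2 and Ncam1 one of at most -1. General pluripotency factors did not follow the naive ones, with 2 NPC-high, 2 ESC-high and 8 of 12 between the limits. Lin28b, which blocks maturation of let-7 miRNAs, held 1 and 34 sites, a ratio of 4.64 (3.06 to 8.13), and Cdh1, E-cadherin, 67 and 148. Sall1, a zinc finger factor, held 50 and 7 with ΔZF1 and 55 and 35 with WT. Of 5 formative genes compared, the de novo DNA methyltransferase gene Dnmt3b was NPC-high (12 and 55) and the ETS factor gene Etv4 ESC-high (25 and 3, ratio -2.19, -4.19 to -0.91), and the median was -0.18.

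Neither the cell adhesion nor the cytoskeleton genes had an ESC-high member. Of 19 adhesion genes compared, 9 were NPC-high against a background of 10.9%, and the median was 0.87. Magi1, a scaffold of tight junctions (ENSMUSG00000045095), held 76 and 559 sites, a ratio of 3.37 (3.04 to 3.73), with 394 and 559 in WT. Pard3, a polarity protein, held 28 and 225, Afdn, which links nectins to actin, 83 and 180, and Itgb1, the β1 integrin, 30 and 78. Cdh3, P-cadherin, held 0 and 21 with ΔZF1, and 18 and 28 with WT. Of 25 cytoskeleton genes, 9 were NPC-high, with a median of 0.23. With exon sites only, 2 adhesion and 4 cytoskeleton genes were NPC-high and 1 of each list was ESC-high. Over all 4194 genes compared with exon sites only, 299 were NPC-high and 463 ESC-high. Kif1a, a kinesin motor of axonal transport, held 0 and 41, and the nonmuscle myosin genes Myh9 and Myh10 held 95 and 183, and 50 and 125. Dst, a linker of filament systems, held 278 and 411, a ratio of 1.07 (0.85 to 1.29). Several of these genes are long, among them Magi1 (608 kb), Pard3 (548 kb) and Dst (400 kb). In the longest of 5 length bins (76.3 kb and over), 275 of 998 genes were NPC-high. The part that gene length plays in the counts of both lists was not tested.

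Guidance and matrix genes went to both sides. Of 17 axon guidance genes compared, 7 were NPC-high and 4 ESC-high, with a median of 0.33. Those with no ESC-ΔZF1 site were Efna5 and Slit3 (above), the semaphorin genes Sema3e (40 NPC-ΔZF1 sites) and Sema6a (36), the netrin receptor gene Unc5b (32) and the ephrin receptor gene Epha1 (20). Epha4 held 87 and 2 sites, a ratio of -4.37 (-6.82 to -3.05), and the netrin gene Ntn1 24 and 0, although the WT pair held no Ntn1 site. Of 14 basement membrane genes, 5 were NPC-high and 2 ESC-high, with a median of 0.43. The neighbouring collagen IV genes Col4a1 (0 and 56) and Col4a2 (0 and 34) were NPC-high together with Col18a1 (40 and 138), Lamb1 (9 and 47) and Dag1 (24 and 38), whereas Nid1, a linker of laminin and collagen IV, was ESC-high (53 and 5).

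Imprinted genes had 8 NPC-high and 2 ESC-high members of 23 compared, with a median of 0.45. Beside Airn, Grb10 and Cobl, the maternally expressed receptor gene Igf2r held 79 and 11 sites, a ratio of -2.23 (-3.23 to -1.44), so that Airn and the gene it runs across lay at opposite ends. Sgce, a sarcoglycan gene, held 0 and 36, the Polycomb-related gene Sfmbt2 5 and 47, and Mirg, a noncoding RNA of the Dlk1 cluster, 23 and 103. The Igf2 count (1 and 29) is uncertain because none of its sites lay in Igf2 alone. Among 15 nuclear long noncoding RNAs compared, 3 were NPC-high and 3 ESC-high. Ftx, a regulator of the X inactivation centre, held 16 and 151, the ESC-enriched Lncenc1 and Platr4 held 53 and 0, and 63 and 7, and Neat1, the scaffold of paraspeckles, held 28 and 9.

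Among chromatin genes, those for histone acetyltransferases, deacetylases and their partners lay lowest. Of 23 compared, 10 were ESC-high and 2 NPC-high, with a median of -0.54. In WT 4 of 22 had a ratio of at most -1 and the median was -0.10. Over all 6730 genes compared in WT, 703 had a ratio of at most -1. Besides Kat6b, its partner Brpf3 held 74 and 5 sites, the tubulin deacetylase gene Hdac6 24 and 1 (ratio -3.14, -6.62 to -1.53), and the corepressor gene Ncor1 344 and 96, a ratio of -1.32 (-1.66 to -1.01). Hdac6 held 42 and 19 in WT, a ratio of -0.21. The acetyltransferase gene Ep300 (101 and 63) stayed between the limits. Of 11 DNA methylation genes, 3 were ESC-high (Tet2, Tet1 and Trim28) and 2 NPC-high (Dnmt3b and Uhrf2), with a median of -0.39. Of 21 Polycomb genes, 3 were NPC-high (Auts2, 6 and 57, Phc2 and Kdm2b) and 3 ESC-high (Pcgf1, Pcgf2 and L3mbtl2), shares close to those over all genes, with a median of -0.24. Of 22 genes for CTCF, cohesin and their partners, 5 were ESC-high, Ctcf and the cohesin subunit gene Smc1a (92 and 30) among them, and 2 NPC-high, one of them the cohesin subunit gene Stag2 (6 and 47, ratio 3.28, 2.29 to 4.67). Of 27 chromatin remodeller genes, 6 were NPC-high, Arid2 (36 and 87) and Chd7 (20 and 47) among them, and 3 ESC-high, with a median of 0.06.

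Lists of RNA processing, translation and replication had few members past a limit. None of 27 hnRNP genes compared was past a limit (median -0.15), and of 18 SR splicing factor genes 1 was on each side. Of 60 cytosolic ribosomal protein genes, 6 were ESC-high, a share below the 14.1% over all genes, and 0 NPC-high, with a median of -0.35. In WT 0 of the same 60 were past a limit and the median was 0.16. Over all 6730 genes compared in WT, 776 had a ratio of at least 1 and 703 one of at most -1. The shortest length bin, into which Rps15a, Rpl22, Rpl5 and Rpl7l1 fall, also had a lower median in ΔZF1 (-0.23) than in WT (0.08). The part that gene length plays in the ribosomal protein medians was not tested. Of 38 genes of DNA replication and the cell cycle 2 were NPC-high and 3 ESC-high (median 0.00). Metabolic, signalling and ubiquitin ligase lists had counts that are not read as different from the shares over all genes. Of 18 glycolysis genes 2 were NPC-high and 3 ESC-high (median -0.12), of 21 Wnt pathway genes 3 and 2, of 24 FGF and ERK pathway genes 2 and 2, of 12 Notch pathway genes 2 and 0, and of 18 HECT ubiquitin ligase genes 2 and 4. Single members of these lists went far. The phosphofructokinase gene Pfkp held 97 and 6 sites, the receptor gene Notch3 held 17 and 76, and the ligase gene Trip12 held 508 and 143. Of the trophoblast and early-cleavage genes only Krt8 (0 and 22) and Tfap2c (23 and 0) were compared, and of mesoderm and endoderm genes and replication-dependent histone genes none was.

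**Figure D2:**
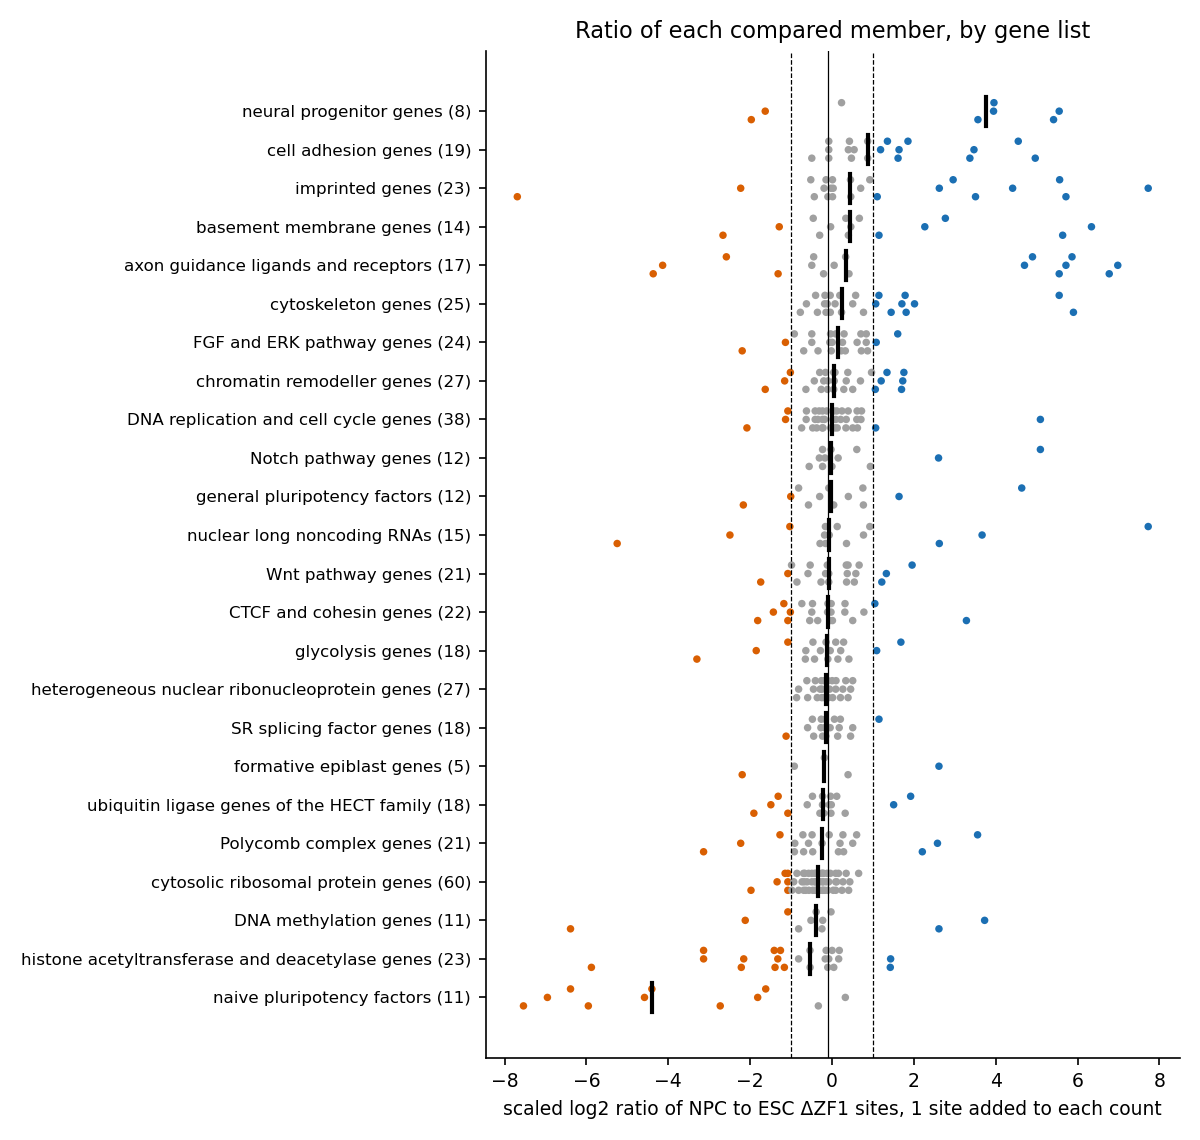
Scaled log2 ratio of NPC-ΔZF1 to ESC-ΔZF1 sites (x axis) of each compared member of 24 gene lists (y axis, number compared in parentheses), 1 point per gene, with NPC-high genes in blue, ESC-high genes in orange, others in grey, a black bar at each list's median and a thin line at the median of all genes. Naive pluripotency factors sit at the left with a median of -4.40 and neural progenitor genes at the right with a median of 3.76, while no hnRNP gene passes a limit.

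Gene lists were then read against the same comparison with WT CTCF. Across the 4956 genes with enough sites in both pairs, Spearman's rho between the ΔZF1 and the WT ratio was 0.53, and within the 3496 genes that also had enough noXL sites it was 0.56 for ΔZF1 with WT, 0.50 for ΔZF1 with noXL and 0.60 for WT with noXL. Each of these correlations runs over genes, and genes are no independent replicates. Of 499 NPC-high genes with WT values, 284 (56.9%) had a WT ratio of at least 1 and 3 one of at most -1. Of 683 ESC-high genes, 297 (43.5%) had a WT ratio of at most -1 and 14 one of at least 1. Among the genes between the limits the WT shares were 5.25% and 4.61%. In noXL, 58.1% of 358 NPC-high genes and 50.6% of 437 ESC-high genes were past the same limit. Over all 3726 genes with enough noXL sites, 414 had a noXL ratio of at least 1 and 459 one of at most -1. A gene past a limit in ΔZF1 was thus more often past the same limit in WT than past the opposite one. The shares past the same limit were no lower without UV than in WT. The following genes are those ranked by the difference of the ΔZF1 and WT ratios.

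The difference between the ΔZF1 and the WT log2 ratio was at least 1 with an interval above 0 in 219 genes (4.42%), and at most -1 with an interval below 0 in 366 (7.38%). With each pair scaled by its median ratio these counts were 289 and 271. Genes with at least 50 sites in each of the ΔZF1 and WT pairs, 80% of the ΔZF1 sites in no other gene, were ranked by it. Of the 6 ranked highest, 4 had sites in NPC-ΔZF1 where NPC-WT had at most 1. Plagl1, an imprinted zinc finger factor, held 58 and 28 ΔZF1 sites but 97 and 0 WT sites. Aff1, a subunit of the super elongation complex, held 98 and 19 against 188 and 0, the Nodal co-receptor gene Tdgf1 42 and 11 against 100 and 0, and the laminin gene Lama1 58 and 16 against 206 and 1. In the noXL pair the NPC counts of these 4 genes were 0, 2, 0 and 1. Rad51b, a recombination gene, moved to opposite sides, with 5 and 60 sites in ΔZF1 and 100 and 31 in WT. Col4a1 held 12 ESC-WT sites against 0 in ESC-ΔZF1.

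At the other end of this ranking, Lncenc1 held 53 and 0 ΔZF1 sites against 157 and 14 WT sites, a difference of -3.69 (-7.78 to 0.40), and Pced1b 64 and 2 (ratio -3.93, -6.38 to -2.60) against 97 and 28. Map1b, which encodes a microtubule-associated protein of axons, held 42 and 66 with ΔZF1 and 5 and 68 with WT, a difference of -3.38 (-4.75 to -2.01). Trio and Efnb2, also ranked here, rest on at most 3 ESC-ΔZF1 sites. The counts were 3 and 53 (ratio 4.26, 3.05 to 6.25) against 0 and 52 in Trio, a guanine nucleotide exchange factor of axon guidance, and 2 and 54 (ratio 4.70, 3.37 to 7.16) against 0 and 65 in the ephrin gene Efnb2. Like that of Lncenc1, the intervals of their differences, -3.17 (-7.48 to 1.14) and -2.98 (-7.39 to 1.43), span 0. Prr12, a proline-rich nuclear protein gene, held 52 and 12 with ΔZF1 and 24 and 33 with WT, and so lay past opposite limits. In total 17 genes did so, some of them with fewer than 50 ΔZF1 sites and a difference below that of Lncenc1, such as -4.89 in Egln2 and -4.34 in Kif13b. Among the 17 were the methyltransferase gene Smyd3 (23 and 58 against 66 and 7), the kinesin gene Kif13b (28 and 3, ratio -2.35, -4.34 to -1.09, against 24 and 46) and the prolyl hydroxylase gene Egln2 (29 and 1, ratio -3.40, -6.89 to -1.81, against 13 and 15). These differences carry counting error only, and clone, depth and the 3 libraries of NPC-WT move with them and were not tested.

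**Figure D3:**
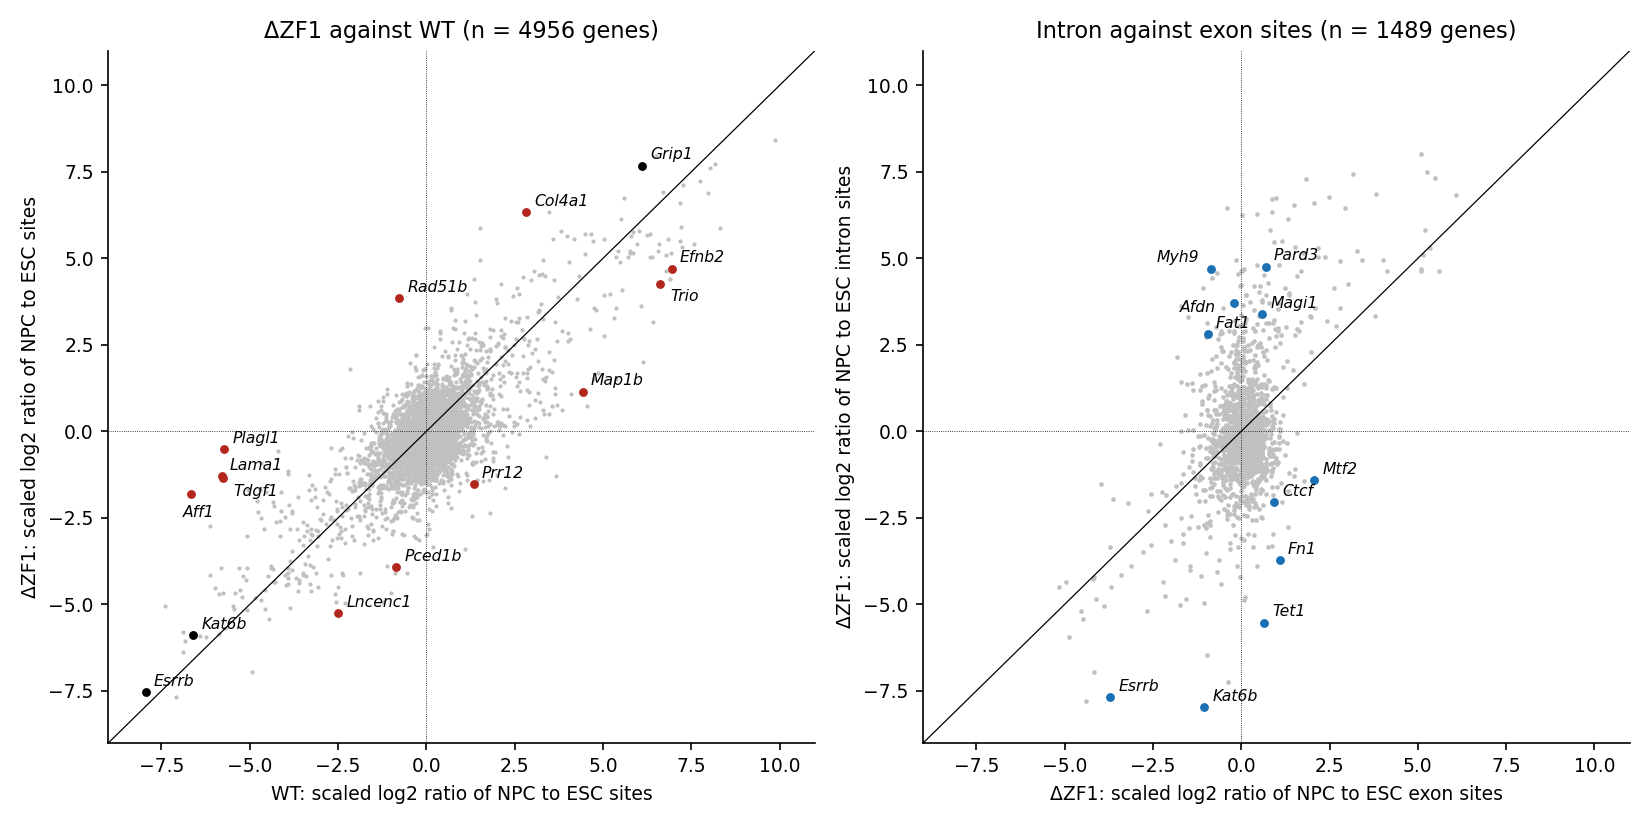
Left, scaled log2 ratio of NPC to ESC sites in ΔZF1 (y axis) against WT (x axis) for 4956 genes, with the 12 genes ranked by their difference among those with at least 50 sites in each pair in red and 3 others in black. Right, the ΔZF1 ratio of intron sites (y axis) against that of exon sites (x axis) for 1489 genes, with named genes in blue. The diagonal is equality. On the left Plagl1, Lama1, Aff1 and Tdgf1 lie above the diagonal, and on the right the cloud is taller than wide, with interquartile ranges of 1.60 for introns and 0.70 for exons.

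Introns took a larger share of the NPC list than of the ESC list in the ΔZF1 line, and a smaller one in WT. Introns are here the parts of gene bodies outside every exon of the basic GENCODE transcripts. They held 37.2% of genic sites in ESC-ΔZF1 and 44.6% in NPC-ΔZF1, a difference of 7.41 percentage points (7.08 to 7.73). In 10 equal bins of the score ranking the difference ran from -4.57 to 14.9 points and was positive in 9. In WT the share was 38.5% in ESCs and 31.2% in NPCs, a difference of -7.33 points, and in noXL it was 45.6% and 47.5%, a difference of 1.84 points. Of these intron sites, 14.3% in ESC-ΔZF1 and 11.3% in NPC-ΔZF1 lay in exons of transcripts outside the basic set. With all transcripts the intron shares were 31.9% and 39.6% in ΔZF1 and 33.4% and 26.9% in WT. The added share lay deep in introns, more than 500 nt from a splice site, which held 24.2% of ESC-ΔZF1 and 31.4% of NPC-ΔZF1 genic sites, while sites within 50 nt of a 3′ splice site held 1.95% and 1.75%. The 5′ UTR share was 8.43% in ESC-ΔZF1 and 5.09% in NPC-ΔZF1, a difference of -3.34 points (-3.50 to -3.18), against 0.86 points in WT. The coding exon share was 37.9% and 34.2%, a difference of -3.65 points, against 6.90 points in WT. The 3′ UTR share differed by -0.27 points (14.9% and 14.6%).

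**Figure D4:**
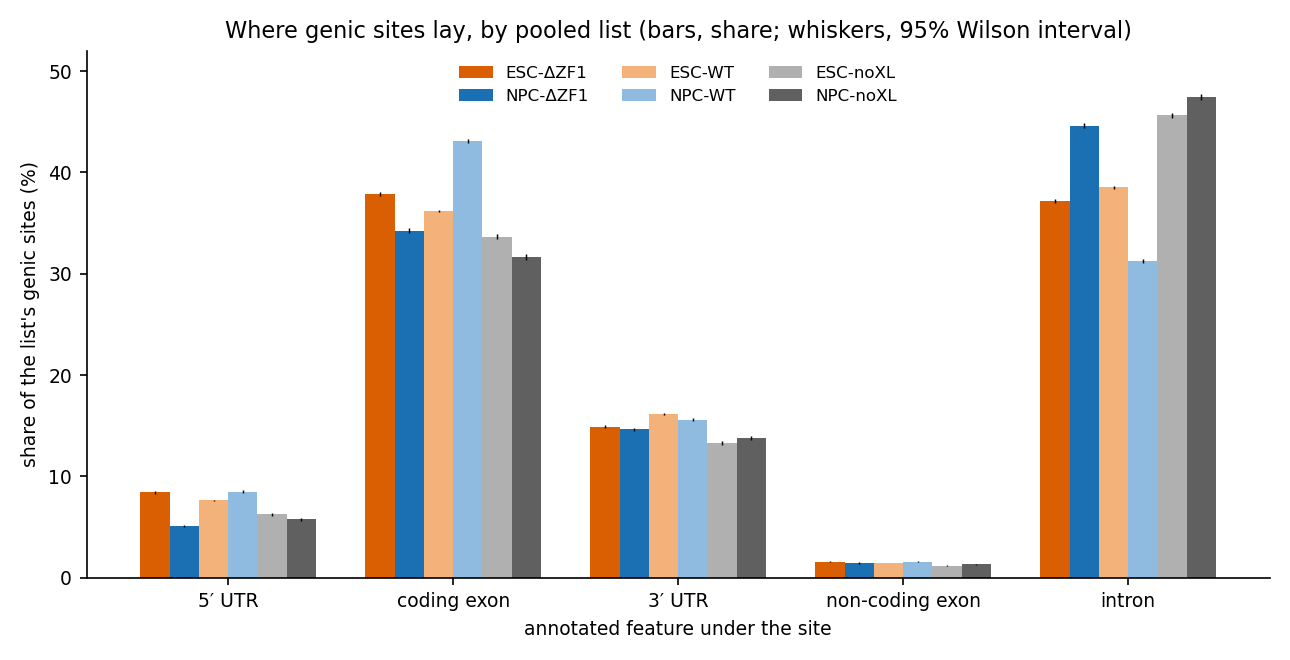
Share of each list's genic sites (y axis, percent) in each annotated feature (x axis), for the 6 pooled lists in colour, with whiskers for the 95% Wilson interval. From ESC to NPC the intron share goes from 37.2% to 44.6% in ΔZF1 (dark orange and dark blue) but from 38.5% to 31.2% in WT (light orange and light blue).

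The same difference was present inside genes. In 1964 protein-coding genes with at least 20 sites in each ΔZF1 list, the intron share was higher in NPC-ΔZF1 in 1278 and lower in 660, with a median difference of 6.44 points (5.30 to 7.29), and the interval of a single gene lay above 0 in 489 and below 0 in 131. Over these genes together the difference was 6.19 points, of which 7.01 came from within genes and -0.83 from a different weight of the genes. The median difference was -2.45 points over 3317 genes in WT and 3.43 points over 1253 genes in noXL.

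Intron sites varied more between the cell states than exon sites of the same gene did. In 1489 genes with at least 20 ΔZF1 sites of each kind, 309 had an intron ratio of at least 1 and 321 one of at most -1, whereas 88 and 92 had such exon ratios. The interquartile range was 1.60 for intron and 0.70 for exon ratios, and the other pairs had the wider range in introns too, with 1.46 and 0.55 in WT and 1.27 and 0.78 in noXL. The numbers of sites were alike, with 48 intron and 47 exon sites in the median gene. Of the 309 genes with a high intron ratio, 61 also had a high exon ratio and 12 a low one. Across genes the rho between intron and exon ratio was 0.22, against 0.51 in WT and 0.29 in noXL.

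Named genes show what this means at single loci. In Tet1, the 5-methylcytosine dioxygenase gene of ESCs, intron sites went from 272 to 4 while exon sites went from 48 to 47. In Fn1, fibronectin, intron sites went from 77 to 4 and exon sites from 43 to 57. Mtf2, a Polycomb accessory factor, went from 190 to 60 in introns and from 9 to 25 in exons, and Ctcf from 58 to 11 and from 10 to 12. The opposite arrangement was found in Myh9 (6 to 153 intron and 89 to 30 exon sites), Afdn (12 to 142 and 71 to 38) and the giant cadherin gene Fat1 (17 to 106 and 86 to 27). With exon sites alone, scaled to exon sites, the log2 ratio of Myh9 was -0.85 (-1.47 to -0.29), opposite in sign to the ratio over all sites. For Ctcf (0.93, -0.23 to 2.13) and Afdn (-0.20, -0.78 to 0.35) the interval spans 0, and no direction is given. None is given for Tet1 (0.66) and Trip12 (0.21) either, since their exon counts, 48 to 47 and 80 to 57, did not rise and the sign comes from the scaling. The sign also turned in the genes above whose ratio over all sites lay between the limits, Fat1 (0.87, and -0.95 with exon sites, -1.60 to -0.36), Fn1 (-0.46 and 1.09, 0.53 to 1.66) and Mtf2 (-0.71 and 2.07, 1.09 to 3.24). In Kat6b introns went from 889 to 2 and exons from 29 to 8, so both kinds were few in NPCs.

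NPC-high genes were long and their sites in NPCs intronic. The median body of the 556 NPC-high genes was 77.3 kb, against 25.7 kb for ESC-high genes and 30.5 kb for all compared. Introns held 28.4% of the ESC-ΔZF1 and 62.9% of the NPC-ΔZF1 sites of NPC-high genes, and 45.7% and 33.8% of those of ESC-high genes. In genes between the limits they held 39.2% and 43.7%. Both called groups were picked by these same sites, and intron ratios varied more than exon ratios. Intron shares that move in opposite directions are therefore favoured by the choice of genes and are no separate result. With genes divided into 5 bins by length, 275 of 998 in the longest bin (76.3 kb and over) were NPC-high, with a median of 0.24, whereas 31 of 998 in the shortest bin were, with a median of -0.23. The medians of the longest and shortest bins were 0.14 and 0.08 in WT and 0.19 and -0.07 in noXL.

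The base under the site moved toward uridine. Uridine lay under 48.6% of ESC-ΔZF1 sites (48.4 to 48.8) and 58.5% of NPC-ΔZF1 sites (58.3 to 58.8), a difference of 9.90 points (9.58 to 10.21). In WT the shares were 59.9% and 63.9%, a difference of 3.95 points, and without UV 28.3% and 27.9%, a difference of -0.41 points. The ΔZF1 lists thus lay between noXL and WT, with NPC-ΔZF1 the nearer to WT. The other bases all had smaller shares in NPC-ΔZF1, with adenine at 15.8% and 10.9%, cytosine at 20.2% and 17.8%, and guanine at 15.3% and 12.7%. In numbers of sites, the NPC list held 0.823 times as many uridine sites as the ESC list but 0.552 times as many sites at other bases. In introns alone the uridine sites numbered 41423 and 41401.

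The uridine difference was found wherever sites lay and however they scored. It was 8.95 points in coding exons, 7.98 in 3′ UTRs, 7.97 in 5′ UTRs and 9.45 in introns. In each of 10 equal bins of the score ranking it was positive, between 7.87 and 16.5 points. Inside the 1964 genes the median difference was 9.46 points, with 1621 genes higher in NPC-ΔZF1 and 336 lower. NPC-high and ESC-high genes shared it, with uridine under 47.1% of ESC-ΔZF1 and 59.3% of NPC-ΔZF1 sites in the former and under 49.0% and 57.2% in the latter.

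The triplet centred on the site gave the sequence behind this share. UUG, as in the Grip1 and Podxl sites printed above, made up 6.76% of ESC-ΔZF1 and 11.3% of NPC-ΔZF1 sites, against 10.1% and 13.6% in WT and 2.41% and 2.16% in noXL. Sites in a run of 3 or more U made up 18.9% and 22.4%, against 27.8% and 28.7% in WT and 6.53% and 6.62% in noXL. CUG, the triplet of the Airn site, made up 3.52% and 5.10%, against 4.13% and 4.46% in WT and 3.35% and 3.17% in noXL. UUU moved less, with 9.93% and 10.9%. At the position 1 nt before the site uridine stood at 41.2% in ESC-ΔZF1 and 45.6% in NPC-ΔZF1, and at the position 1 nt after it guanine stood at 25.9% and 32.9%. Guanine at that position stood at 27.6% and 31.1% in WT, and at 31.3% and 27.5% in noXL.

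**Figure D5:**
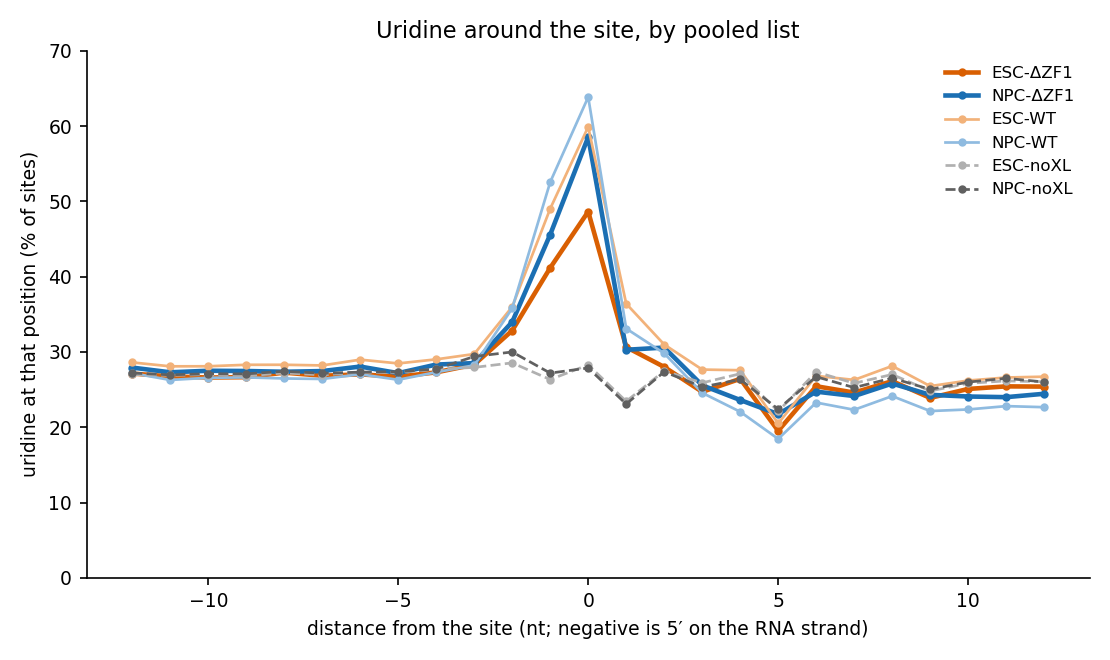
Uridine (y axis, percent of sites) at each position from 12 nt before to 12 nt after the site (x axis, nt on the RNA strand) for the 6 pooled lists. At the site itself NPC-ΔZF1 reaches 58.5% and ESC-ΔZF1 48.6%, between the WT lists above them and the flat noXL lists (dashed) at 28.3% and 27.9%.

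Few single positions were common to both cell states in the ΔZF1 line. Of NPC-ΔZF1 sites, 10.3% (10.2 to 10.5) had an ESC-ΔZF1 site within 5 nt on the same strand, 4.12% had one at the same nucleotide and 33.8% one within 50 nt. The share within 5 nt was 17.6% toward the longer ESC-WT list and 13.8% toward NPC-WT, 5.40% toward ESC-noXL and 4.36% toward NPC-noXL. Between the WT lists it was 29.3% and between the noXL lists 7.42%, and longer lists give higher shares. The common ΔZF1 positions were exonic for the most part, with 18.6% in introns against 44.6% of all NPC-ΔZF1 genic sites. The other pairs had the same arrangement, with 15.4% against 31.2% in NPC-WT and 24.6% against 47.5% in NPC-noXL. Sites also stood more alone in NPC-ΔZF1, where 10.4% had another site of the list within 8 nt, against 20.9% in ESC-ΔZF1, 34.6% and 28.4% in ESC-WT and NPC-WT, and 10.7% and 7.35% in the noXL lists.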

How the data were processed

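CTCF iCLIP libraries were made by the submitters from immunoprecipitated Flag-tagged rescue CTCF. Per the study's methods, reads were demultiplexed and trimmed with Flexbar, aligned to mm10 with STAR, and deduplicated by molecular identifier with UMI-tools. Libraries of a condition were merged before PureCLIP called single crosslinked nucleotides. Tool versions are not given in the sources used here. Each deposited site carries a score from PureCLIP, which is not scaled to depth. It was used here to rank sites and, in an alternative, as a minimum common to both ΔZF1 lists. The number of reads per list was not analysed here, so precision follows from numbers of sites alone.

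Samples were grouped by their labels. Nuclear sites on the assembled chromosomes were assigned, by strand, to GENCODE M21 gene bodies and basic transcripts on GRCm38, with coding exons taking priority over 3′ UTRs, then 5′ UTRs, then non-coding exons, then introns. Mitochondrial sites were left out (72 in ESC-ΔZF1, 13 in NPC-ΔZF1). Scaled log2 ratios used a pseudocount of 1, a minimum of 20 sites over both lists and limits of 1 and -1. Shares have 95% Wilson intervals, their differences Newcombe intervals, ratios intervals from the Wilson share, and differences of ratios Woolf intervals. Intervals and the floor of 3 sites cover counting error only.

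Named genes were the 12 highest and 12 lowest ratios among protein-coding and long noncoding genes with at least 50 ΔZF1 sites, 80% of them in no other gene, up to 4 members of each of 27 gene lists with most sites, the 6 highest and 6 lowest differences from WT among genes with at least 50 sites in each pair, and Podxl, Grb10 and Ctcf. Some genes that meet these criteria are not reported here. Gene lists and members were chosen with earlier results of these data known. Alternatives changed the site and gene minimums, pseudocount, scaling, score minimum, merging, base, feature class, use of chromosome 11 and removal of sites near noXL sites. Calculations were tested on simulated data. The software was matplotlib 3.10.9, pysam 0.24.0, scipy 1.17.1, pandas 2.3.3 and numpy 2.4.6 under Python 3.11.15.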

Additional observations from a re-analysis of the deposited data

Results flagged for a closer look

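Several results pointed in opposite directions in the ΔZF1 and the WT line under the same contrast, NPC against ESC. Each rests on 1 pooled list per group, so the difference between the lines was not tested, and clone and list length differ between the lines. The intron share differed by 7.41 points in ΔZF1 and by -7.33 points in WT, and the median difference within genes was 6.44 points in ΔZF1 and -2.45 points in WT. The coding exon share differed by -3.65 points in ΔZF1 and by 6.90 points in WT, the 5′ UTR share by -3.34 and 0.86 points, and the non-coding exon share by -0.14 and 0.13 points. Of the genes named by rank, Prr12 had a scaled log2 ratio of -1.52 in ΔZF1 and 1.34 in WT, and Rad51b one of 3.85 in ΔZF1 and -0.76 in WT.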

How the results depend on the processing

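No paired analysis was possible because PureCLIP ran on merged libraries, and replicate numbers no longer exist in the lists. The settings that kept the highest-scoring sites up to the length of the shorter list, or used all GENCODE transcripts for intron shares, were chosen after seeing the data. The count of NPC-high genes was 299 with exon sites only, 922 and 221 with minimums of 10 and 50 sites, 331 with no scaling and 353 with the higher-scoring sites, those at or above the median score of both ΔZF1 lists. The count of ESC-high genes was 463 with exon sites only, 411 with intron sites only, 1164 and 231 with minimums of 10 and 50, 1535 with no scaling, 456 with a pseudocount of 5, 332 with the higher-scoring sites and 383 with uridine sites only. The median ratio changed sign with exon sites only (0.0102) and with scaling to exonic sites (0.10). It was -0.0548 with lists of equal length, -0.22 with intron sites only, -0.0556 with a minimum of 50, -0.59 with no scaling, -0.00729 with a pseudocount of 5, 0 when scaled by itself, -0.0436 with the higher-scoring sites and -0.0644 with uridine sites only. The median difference between the ΔZF1 and the WT ratio, -0.09, changed sign with exon sites only (0.0269) and with scaling by the median ratio (0.0378), and was -0.0347 with uridine sites only. Genes past the limits of that difference numbered 357 with exon sites only and 324 with uridine sites only, against 585. Spearman's rho with WT was 0.35 with exon sites, 0.67 with intron sites and 0.62 with a minimum of 50. The intron share difference was 9.34 points with the higher-scoring sites, 7.06 without sites near noXL sites and 6.93 with merged sites, and the within-gene median was 4.91 with lists of equal length, 4.81 with a minimum of 50 and 4.17 with uridine sites only. The uridine difference was 10.8, 9.14 and 9.26 points with the higher-scoring sites, without sites near noXL sites and with merged sites. The list length ratio was 0.888, 0.725 and 0.730 in these settings, 0.823 with uridine sites only and 0.690 without chromosome 11. Shared positions were 7.43%, 7.70% and 9.65% in the same settings, 7.73% with uridine sites only, 4.12% at 0 nt and 33.8% within 50 nt. Of the named genes past a limit, the ratio changed sign in 5 with exon sites only, Afdn (-0.20), Ctcf (0.93), Myh9 (-0.85), Tet1 (0.66) and Trip12 (0.21), in Tet1 and Trip12 through the scaling alone and in Afdn, Ctcf and Trip12 with an interval that spans 0. Of the other ratios of named genes under alternatives, 1689 moved by less than 0.5 on the log2 scale and 374 by more. Among them 125, in 54 genes, changed sign, all in genes whose ratio lay between the limits, 31 with exon sites only and 21 with no scaling. Of the counts of gene list members past a limit, 603 stayed within 1.5 times and 189 did not. Of the list medians, 337 moved by less than 0.5 and 59 by more. The median of the adhesion genes was 0.16 with exon sites only and 2.69 with intron sites only, and that of the cytoskeleton genes was 2.17 with intron sites only and -0.27 with no scaling. The causes were not tested.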

Other observations

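Long noncoding RNAs made up 2.34% of NPC-high genes (13 of 556), 4.44% of ESC-high genes (32 of 720) and 2.07% of all genes compared. By chromosome, the ΔZF1 ratio of NPC to ESC sites relative to the list lengths ran from 0.62 on Y and 0.90 on chromosome 11 to 1.10 on X and 1.14 on chromosome 10, and in WT the same 4 chromosomes stood at 1.11, 0.93, 1.03 and 1.15. Y held 349 and 147 ΔZF1 sites. Outside genes and on their antisense strands the ΔZF1 lists differed in size more than inside them, with 11034 intergenic sites in ESC-ΔZF1 and 4170 in NPC-ΔZF1, and 2832 and 1109 antisense sites. Genic sites made up 94.0% of ESC-ΔZF1 and 96.7% of NPC-ΔZF1, against 95.1% and 96.2% in WT.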
